A study of Mus musculus with 22 samples.

Results

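The first 6 h of the light period were followed in the hypothalamus of control mice that slept undisturbed. The comparison set 4 libraries taken at Zeitgeber time 6 (ZT6, 6 h after lights on) against 3 taken at ZT0 (lights on), 7 of the 22 libraries of the series. All 7 mice were PWScrm+/p+ controls on the C57BL/6J background, which carry an intact paternal copy of the Snord116 small nucleolar RNA genes; the labels name no drug, transgene or deletion in them, and give neither age nor sex. Each library carries its own mouse number, and p-values measure only the spread between these samples. The samples were chosen by genotype, time and the absence of sleep deprivation, and no measured value entered that choice. Another control group, 4 mice killed at the same ZT6 after 6 h of sleep deprivation (SD), shared the fit and is used to show the level of the same genes in mice of equal clock time that had been kept awake. The ZT0 and SD groups are both set against the same ZT6 libraries. A gene that differs from ZT6 in both comparisons is therefore not a separate result.

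Library totals ran from 26111765 to 34056912 counts at ZT0 and from 14609454 to 46965594 at ZT6. Values are given as CPM (counts scaled to a library of 1000000) adjusted with TMM factors, which put libraries on a common scale from the bulk of their genes; they compare 1 gene between libraries, and are not set against another gene because they are not divided by transcript length. A value of 0 allows up to 3 counts, or 0.0639 to 0.205 CPM over the ZT0 and ZT6 libraries, a limit that covers counting error only. The 3 ZT0 libraries carried index numbers 14, 15 and 16 in their titles, and the ZT6 libraries 4, 8, 9 and 45. The labels do not call these numbers batches. Since all ZT0 libraries lie in 1 run of numbers and the ZT6 libraries do not, main values were also computed with 3 runs of index numbers (1 to 4, 5 to 18 and 43 to 46) as a factor and within the run 5 to 18 alone, which holds all 3 ZT0 and 2 of the 4 ZT6 libraries. Spearman correlations across genes, which are not independent replicates, were 0.9804 to 0.9834 among ZT0 libraries and 0.9243 to 0.9568 among ZT6 libraries. Between ZT0 and ZT6 libraries they were 0.9481 to 0.9759. The highest of these joined ZT6 replicate 3 to ZT0 replicate 3, and ZT6 replicate 3 reached at most 0.9377 with another ZT6 library. Neuron markers summed to 3371 to 3880 CPM at ZT0 and 3073 to 3926 CPM at ZT6, with Snap25, the synaptic vesicle fusion protein, and Stmn2 present in every library. Pituitary hormone genes stood apart in 1 library: their 7 tested markers summed to 19.1 to 69.3 CPM at ZT0 and to 1745, 101, 25.5 and 56.6 CPM in ZT6 replicates 1 to 4, with growth hormone (Gh) at 527 CPM in replicate 1. Fewer cells of a type and less RNA per cell cannot be told apart in tissue RNA.

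The molecular clock runs in nearly every cell. In its core loop the activators CLOCK (or NPAS2) and BMAL1 (gene Arntl) bind E-box sequences and switch on the Period and Cryptochrome genes, whose proteins then block the activators. A second loop is formed by the nuclear receptors REV-ERB (Nr1d1, Nr1d2), which repress Arntl through ROR elements, and ROR (such as Rora and Rorb), which activate it; the PAR-domain factors DBP, TEF and HLF and their competitor NFIL3 carry the rhythm to output genes through D-boxes. In rodents the suprachiasmatic nucleus of the hypothalamus is set by light, and the early light phase is the main sleep time of mice.

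No gene passed the threshold between ZT0 and ZT6, in a test that called 6 of 100 genes given a 2-fold change in simulated data. Of 19831 genes tested, 0 were higher and 0 lower (0% in each direction) at an adjusted p under 0.05 in edgeR's quasi-likelihood test, and the lowest adjusted p was 0.967. At an unadjusted p under 0.05 stood 349 genes higher (1.76%) and 203 lower (1.02%), together 2.78% of those tested. DESeq2 on the same 11 libraries called 12 higher and 1 lower. Its calls included Tmem254c, Gm10443, Cep78, Ndufa9 and mt-Td and no gene of the clock lists. Before TMM scaling, Ndufa9 was at 3.465, 4.94 and 6.871 CPM at ZT0 and at 9.922 to 38.137 CPM at ZT6. The remaining calls were at 0 in all ZT0 libraries. Among the ZT6 libraries, Gm4737 had counts only in replicate 4 and Gm9843 only in replicate 1. The median log2 fold change over all genes was 0.07. Of the 19831 genes, 11467 had a higher and 8363 a lower estimate at ZT6, the background for the direction counts of the gene lists. The CPM values at ZT6 and ZT0 did not overlap for 365 genes higher at ZT6 (1.84%) and 544 lower (2.74%). Genes named beyond the clock lists, a fixed list of temperature, activity, steroid and peptide genes and the 10 smallest p-values were chosen after their values were seen.

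The clock repressors included 3 of the 4 clock genes whose groups did not overlap. The 19 genes of the activator, repressor and output lists were all tested, 10 with a higher and 9 with a lower mean estimate at ZT6. Values at ZT6 lay above every ZT0 value for 4 of the 19 (against 1.84% of all genes), namely Per1, Nr1d1, Ciart and Dbp, and below every ZT0 value for none (against 2.74%). These 4 were also the members at an unadjusted p under 0.05 with a higher estimate (against 1.76% of all genes), and Arntl was the only member with a lower one (against 1.02%). None was called, and the adjusted p of the named genes in this comparison ran from 0.967 to 0.998.

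The sequences printed here show where elements of these loops were found at clock genes whose values are described next, in promoter windows from RefSeq (GRCm38.p6) that span 250 bases before to 50 after a start site. They were chosen after the values were seen, since no clock gene was called. The E-box searched was CACGTG and the ROR element AGGTCA, both on either strand. Per1 (chromosome 11, 69095217 to 69109960, plus strand) and Ciart (chromosome 3, 95878503 to 95882251, minus strand) are printed for the 250 bases before a RefSeq start site, with E-boxes in capitals. The Per1 stretch lies inside the gene span given, before an internal start site. Another Per1 window, 69099902 to 69100201, held no E-box. Arntl (chromosome 7, 113207465 to 113314126, plus strand) is printed for 30 bases around a ROR element in capitals, whose first base lies 31 bases past one of its start sites.
Per1, chr11:69098699-69098948, plus strand: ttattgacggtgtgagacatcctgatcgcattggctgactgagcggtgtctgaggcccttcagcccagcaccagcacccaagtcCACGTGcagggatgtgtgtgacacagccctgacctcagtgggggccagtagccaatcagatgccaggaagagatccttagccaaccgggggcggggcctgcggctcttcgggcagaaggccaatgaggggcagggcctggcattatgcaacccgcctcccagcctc
Ciart, chr3:95882229-95882478, minus strand: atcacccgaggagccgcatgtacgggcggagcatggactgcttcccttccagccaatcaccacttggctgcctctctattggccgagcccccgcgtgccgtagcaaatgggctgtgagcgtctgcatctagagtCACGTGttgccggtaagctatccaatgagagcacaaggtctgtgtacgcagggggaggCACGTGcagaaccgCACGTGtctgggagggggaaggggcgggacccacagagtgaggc
Arntl, chr7:113207530-113207559, plus strand: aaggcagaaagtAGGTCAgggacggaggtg

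Windows were found for 17 of the 19 clock genes, 23 windows in all, and 5 of these genes held an E-box: Per1 with 1, Ciart with 3, and Cry1, Bhlhe41 and Tef. An E-box stands in 7.15% of all 32851 windows in the table and in 9.05% of the 16990 windows of genes tested; a gene can have several windows, so these shares of windows are not shares of genes. Of the 5 genes, Per1 and Ciart had ZT6 values above all ZT0 values, and Cry1, Bhlhe41 and Tef did not. The ROR element stands in 16.3% of all windows, in 13.3% of those of genes tested, and in those of 5 clock genes, Arntl, Clock, Per1, Nr1d2 and Nfil3. The windows of Dbp and Nr1d1 held neither element, which says only that these letters are not in these windows. The D-box TTATGTAA was found in the window of Per3 (0.938% of all windows, 0.618% of those of genes tested) and the cAMP element TGACGTCA in that of Hlf (1.79% and 2.64%). A match is a description of letters and not a bound site.

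The activators come first. Arntl, whose product BMAL1 is the indispensable partner of CLOCK, was measured at 28.9, 16.1 and 19.4 CPM at ZT0 and at 12.9, 7.67, 20.9 and 7.97 CPM in ZT6 replicates 1 to 4. Of the 4 ZT6 libraries, 3 lay below all ZT0 libraries, and replicate 3 lay among them. The mean was 21.5 ± 6.67 CPM (SD, n = 3) at ZT0 and 12.3 ± 6.17 CPM (SD, n = 4) at ZT6, a log2 fold change of -0.80 ± 0.35 (SE), which was -0.61 ± 0.49 within index numbers 5 to 18. Without ZT6 replicate 3 the estimate was -1.17. After SD, Arntl stood at 13.3, 19.6, 18.2 and 11.9 CPM, within the range of the undisturbed ZT6 mice.

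Npas2, which can take the place of CLOCK in the forebrain, was at 8.54, 8.24 and 6.73 CPM at ZT0 and at 7.61, 4.53, 7.67 and 6.49 CPM at ZT6, with overlap. Clock itself was barely detected, at 0.307 to 1.2 CPM at ZT0 and 0 to 0.966 CPM at ZT6, and 1 SD library held 11.9 CPM; such a scatter near 0 allows no statement on its level. Rora and Rorb, the nuclear receptors that activate Arntl, had log2 fold changes of -0.05 ± 0.32 and -0.01 ± 0.34 that turned to 0.24 ± 0.33 and 0.35 ± 0.31 within index numbers 5 to 18. ZT6 replicate 3 held the highest value of both, 85.1 CPM of Rora against 34.2 to 44.8 CPM in the other ZT6 libraries and 46.9 to 60.8 CPM at ZT0.

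Among the repressors, Nr1d1 (chromosome 11, 98767932 to 98775333, minus strand) had the smallest p. It encodes REV-ERB-alpha, a haem-binding repressor of Arntl, and was measured at 36.3, 46.5 and 30.3 CPM at ZT0 and at 102, 66.3, 55 and 80.2 CPM at ZT6. Every ZT6 library was above every ZT0 library, with the lowest ZT6 value in replicate 3. The mean was 37.7 ± 8.16 CPM (SD, n = 3) at ZT0 and 75.8 ± 20.1 CPM (SD, n = 4) at ZT6, a 2.01-fold difference and a log2 fold change of 1.01 ± 0.26. It was 0.64 ± 0.23 within index numbers 5 to 18, where the ZT6 libraries are replicates 2 and 3. SD mice held 77.0, 80.8, 46.8 and 64.9 CPM. Exons of Nr1d1 share 8.55% of their bases with Thra on the other strand, and whether the quantification used strand is not given in the sources used here. Its paralogue Nr1d2 did not share the pattern: it ran from 117 to 168 CPM at ZT0 and from 98.3 to 176 CPM at ZT6.

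Per1, the Period gene that responds fastest to light and hormones, was at 37.0, 35.2 and 27.4 CPM at ZT0 and at 66.7, 54.8, 43.8 and 44.6 CPM at ZT6. All 4 ZT6 libraries were above the ZT0 range. The log2 fold change was 0.66 ± 0.24, or 1.58-fold, and 0.53 ± 0.21 within index numbers 5 to 18. Per2 had overlapping values, 19.6 to 24.1 CPM at ZT0 and 21.7 to 28.8 CPM at ZT6, with an estimate of 0.28 ± 0.19. Per3 spread more widely at ZT6, from 39.0 to 84.1 CPM, around a ZT0 range of 49.2 to 56.5 CPM.

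Ciart, also named Chrono, encodes a repressor that acts on CLOCK and BMAL1, and is the gene with 3 E-boxes printed above. It was measured at 7.41, 8.78 and 7.57 CPM at ZT0 and at 13.4, 12.1, 10.6 and 13.2 CPM at ZT6, so that the 2 groups did not overlap. The log2 fold change was 0.64 ± 0.25, or 1.55-fold, and 0.48 ± 0.23 within index numbers 5 to 18. After SD it was at 13.2, 9.65, 8.68 and 6.02 CPM, and those libraries reached from below the ZT0 range to the ZT6 range; the log2 difference between SD and ZT6 was -0.39 ± 0.23 (adjusted p = 1.00 in edgeR's quasi-likelihood test).

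The Cryptochromes, which do most of the repression within the core loop, lay close together at both times. Cry1 was at 18.5 to 23.3 CPM at ZT0 and 17.2 to 21.8 CPM at ZT6, and Cry2 at 85.2 to 95.3 CPM and 88.8 to 115 CPM. Bhlhe40 and Bhlhe41, the DEC repressors that compete for E-boxes, had estimates of 0.04 ± 0.20 and 0.34 ± 0.22, and the former turned to -0.32 ± 0.22 within index numbers 5 to 18. Over the 10 repressors, 8 had a higher estimate at ZT6, with a median log2 fold change of 0.21 against 0.07 over all genes, and their summed level was 490 to 518 CPM at ZT0 and 529 to 630 CPM at ZT6.

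**Figure D1:**
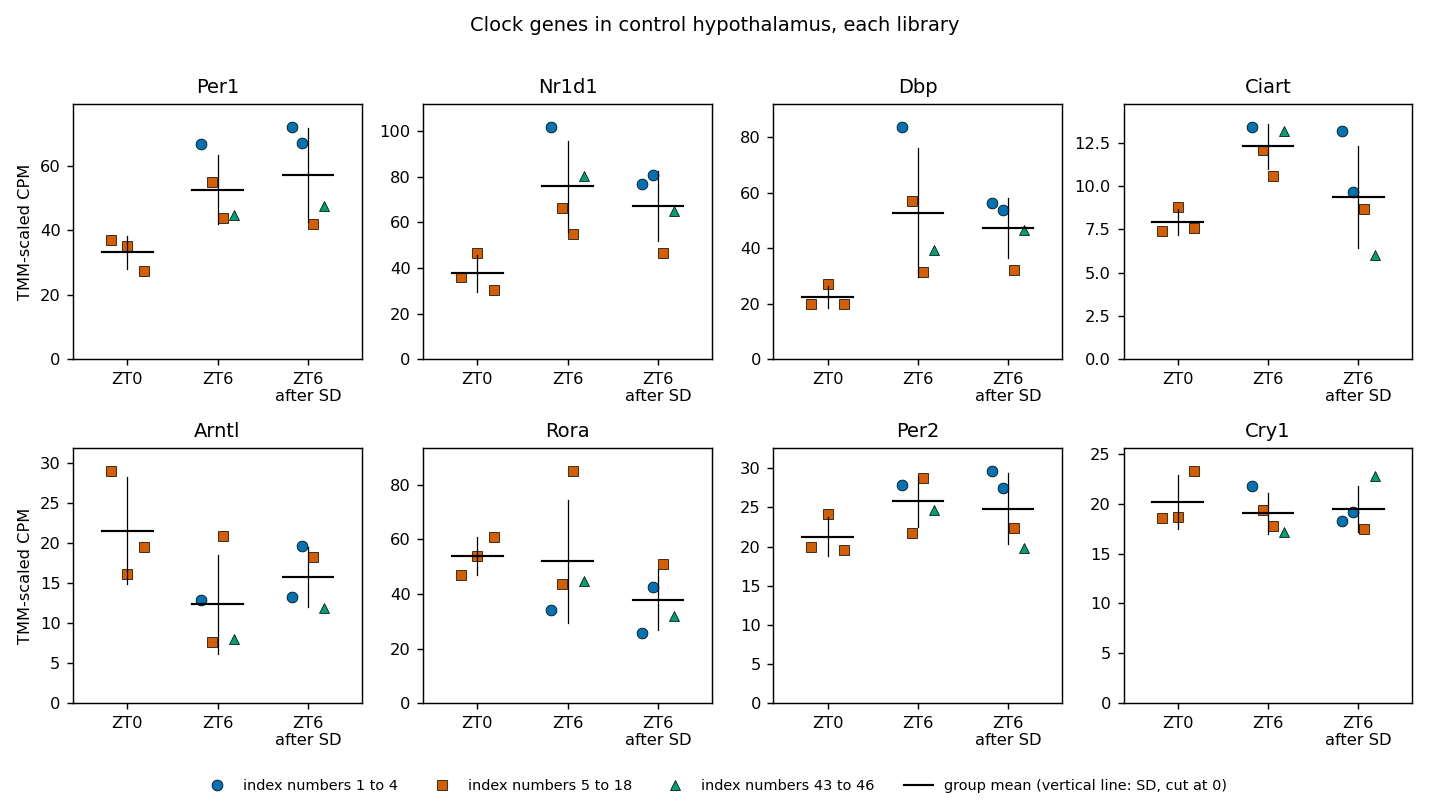
TMM-scaled CPM of 8 clock genes in each of the 11 control libraries at ZT0, at ZT6 and at ZT6 after sleep deprivation (SD); marker shape and colour give the run of index numbers, the horizontal line the group mean and the vertical line the SD. Per1, Nr1d1, Dbp and Ciart are above the ZT0 range in all 4 ZT6 libraries, Arntl is below it in 3 of 4, and Rora, Per2 and Cry1 overlap.

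Of the output factors, Dbp (chromosome 7, 45705088 to 45710203, plus strand) had the largest difference of the clock genes with a mean above 1 CPM. It encodes a D-box activator driven directly by the E-box loop and is a sensitive reporter of clock phase. Its values were 20.1, 27.1 and 20.1 CPM at ZT0 and 83.6, 57.0, 31.3 and 39.5 CPM at ZT6. The groups did not overlap, and ZT6 replicate 3, at 31.3 CPM, came closest to the highest ZT0 library. The mean was 22.5 ± 4.06 CPM (SD, n = 3) at ZT0 and 52.9 ± 23.1 CPM (SD, n = 4) at ZT6, 2.36-fold, for a log2 fold change of 1.24 ± 0.33 that was 0.93 ± 0.28 within index numbers 5 to 18. In the SD mice Dbp was at 56.4, 53.9, 32.3 and 46.5 CPM, also all above ZT0. Exons of Dbp share 18% of their bases with Sphk2 on the other strand.

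The other output factors showed no such gap. Tef, a PAR-domain relative of Dbp, was at 229 to 265 CPM at ZT0 and 179 to 287 CPM at ZT6. Hlf was at 77.1 to 87.0 CPM and 79.9 to 89.4 CPM, and Nfil3, the repressor that competes with them for D-boxes, at 7.40 to 8.77 CPM and 4.90 to 9.23 CPM. Their log2 fold changes were -0.10 ± 0.20, 0.07 ± 0.14 and -0.10 ± 0.27.

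The plot of log2 fold changes sets the 19 clock genes side by side under 3 fits. The 4 genes Per1, Nr1d1, Ciart and Dbp stayed above 0 in all of them, with estimates between 0.48 and 1.24, and Arntl and Npas2 stayed below 0. Per2, Per3, Cry2 and Bhlhe41 also stayed above 0, and Clock, Cry1, Tef and Nfil3 below it, so a kept sign was common among these genes. Rora, Rorb, Nr1d2, Bhlhe40 and Hlf crossed 0 between fits. None reached an adjusted p under 0.05 in any of the 3.

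**Figure D2:**
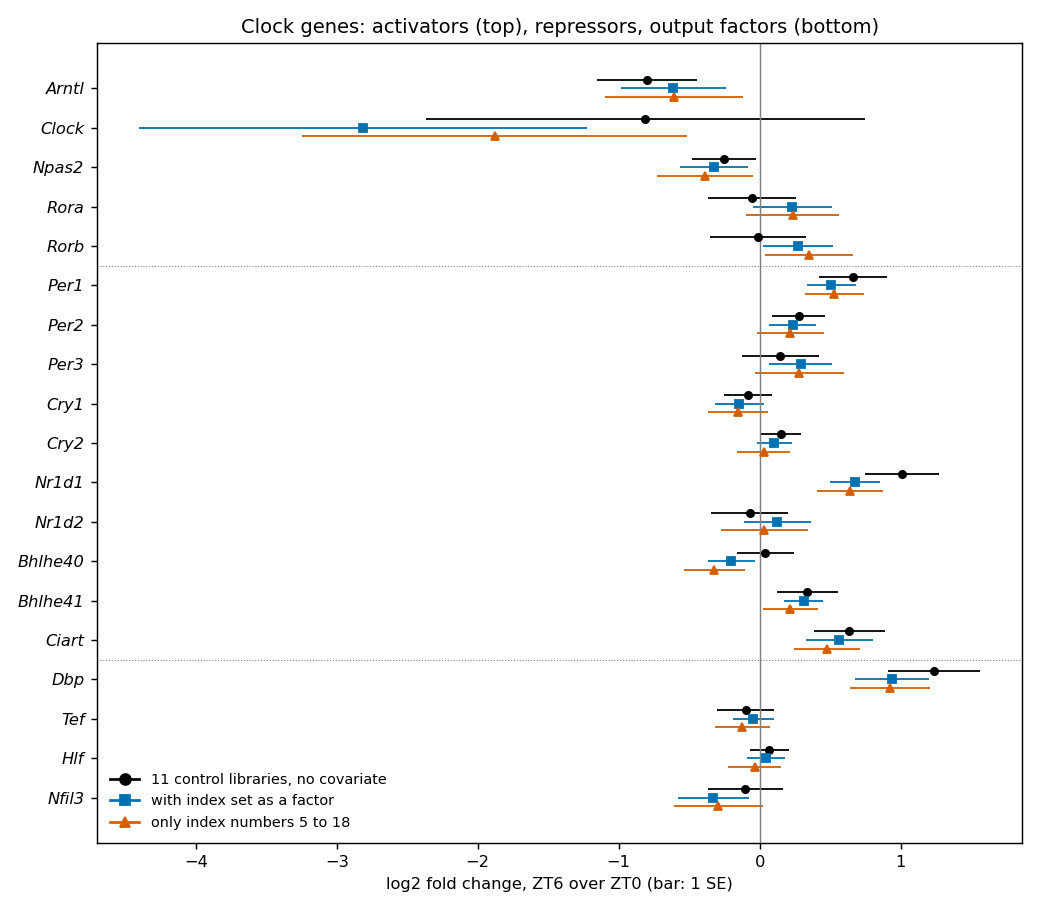
Log2 fold change of ZT6 over ZT0 for the 19 clock genes in the fit of 11 control libraries, with index set as a factor, and with only index numbers 5 to 18; bars are 1 SE and dotted lines part activators, repressors and output factors. Per1, Nr1d1, Ciart and Dbp lie to the right of 0 and Arntl to the left in all 3 fits, while Clock, at or near 0 counts in some libraries, has the widest bars. Other clock genes also stay on the same side of 0 in all 3 fits.

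Further members of the clock system were less separated. Usp2, a deubiquitinase under direct clock control, was at 19.5, 16.6 and 20.4 CPM at ZT0 and at 28.3, 32.7, 18.8 and 26.2 CPM at ZT6. In 3 of 4 ZT6 libraries it was above the ZT0 range. Nampt, the rate-limiting enzyme of NAD+ salvage, was at 60.8 to 85.2 CPM at ZT0 and 38.3 to 72.8 CPM at ZT6. The 6 kinases and ubiquitin ligases that time the degradation of PER and CRY split evenly, 3 higher and 3 lower, with estimates from -0.28 to 0.15; Fbxw11, a ligase subunit that acts on PER, was the only 1 of the 6 whose ZT6 values all lay below ZT0 (against 2.74% of all genes), at 140 to 148 CPM and then 99.1 to 137 CPM.

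Genes that mark the suprachiasmatic nucleus measure the clock's own tissue, and they also show how much of it a dissection held. Of 14 tested, 7 were higher and 7 lower, with a median of 0.09. Vip, the peptide that synchronises its neurons, was at 12.9, 9.54 and 4.36 CPM at ZT0 and at 0.592, 31.7, 20.4 and 13.8 CPM at ZT6, so ZT6 replicate 1 held the least and replicate 2 the most. Nms and Prok2, peptides of the same nucleus, had their lowest ZT6 value in replicate 1 too, 0.375 and 0.414 CPM, and their highest in replicate 2, 4.69 and 2.01 CPM. Not every member of the list followed this order. Grp, Lhx1 and Gpr176 had their lowest ZT6 value in replicate 2, at 1.39, 7.98 and 17.7 CPM. In replicate 1 they were at 2.05, 13.8 and 21.9 CPM. In the SD group the 2 libraries of index numbers 1 to 4 had less Vip, 0.990 and 0.651 CPM, against 13.6 and 39.1 CPM in the others. The part of dissection in these values was not tested.

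Vipr2, the receptor through which Vip acts, followed a different order from its ligand. It was at 7.37, 6.55 and 5.32 CPM at ZT0 and at 3.79, 3.76, 4.78 and 4.79 CPM at ZT6, below the ZT0 range in every library, for a log2 fold change of -0.59 ± 0.24 and -0.62 ± 0.31 within index numbers 5 to 18. SD mice were at 3.45 to 4.61 CPM. Six3, a homeobox factor of the ventral forebrain, lay above the ZT0 range of 30.4 to 32.5 CPM in all 4 ZT6 libraries, at 35.1 to 47.5 CPM. Of the 14 suprachiasmatic nucleus genes tested, 1 was apart on each side, against 1.84% of all genes higher and 2.74% lower.

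Cirbp and Rbm3 encode RNA-binding proteins that are induced by mild cooling, and body and brain temperature of mice fall during the light phase. Cirbp was measured at 62.9, 76.8 and 75.0 CPM at ZT0 and at 113, 125, 89.0 and 169 CPM at ZT6. All ZT6 libraries exceeded all ZT0 libraries. Its mean was 71.6 ± 7.57 CPM (SD, n = 3) and then 124 ± 33.4 CPM (SD, n = 4), 1.73-fold, a log2 fold change of 0.79 ± 0.22 that was 0.53 ± 0.22 within index numbers 5 to 18. Sleep-deprived mice of the same clock time were at 70.8, 71.9, 82.0 and 101 CPM, closer to ZT0, with a log2 difference from ZT6 of -0.61 ± 0.20 (adjusted p = 0.918 in edgeR's quasi-likelihood test). Rbm3 had overlapping values, 70.5, 77.4 and 96.3 CPM at ZT0 and 78.8, 79.8, 106 and 115 CPM at ZT6, and stood at 47.5 to 66.5 CPM after SD, below both.

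Immediate early genes, which neurons switch on within minutes of activity, had no shared direction. Of 20 tested, 14 had a higher estimate at ZT6, with a median of 0.28 that turned to -0.04 within index numbers 5 to 18. Egr1, a zinc finger factor of that family, was at 21.7, 22.2 and 17.6 CPM at ZT0 and at 43.1, 29.5, 28.7 and 54.6 CPM at ZT6, all above, for a log2 fold change of 0.93 ± 0.28. Its value was 0.47 ± 0.20 within index numbers 5 to 18, and its 2 highest ZT6 libraries were those of the other runs. Btg2, an antiproliferative early gene, also did not overlap, at 8.78 to 11.7 CPM and then 12.6 to 20.1 CPM. Egr2, a relative of Egr1, was the remaining member with separate groups, at levels near the floor, so that 3 of 20 stood apart on the higher side against 1.84% of all genes.

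Fos and Arc, the most used activity markers, overlapped between the times. Fos was at 14.5, 12.4 and 12.4 CPM at ZT0 and at 22.8, 11.5, 14.5 and 11.7 CPM at ZT6, where replicate 1 alone was high. Arc was at 12.2, 11.2 and 10.9 CPM and then 18.9, 12.2, 9.38 and 17.8 CPM. Homer1, whose short form rises with waking in cortex, was at 25.3 to 35.4 CPM at ZT0 and at 17 to 20.7 CPM in 3 ZT6 libraries, with replicate 3 at 41.2 CPM. Without replicate 3 its log2 fold change was -0.69, and with it -0.32 ± 0.30.

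Glucocorticoid-responsive genes report adrenal steroid, which is low in mice at lights on and rises towards dark. Of 18 tested, 13 had a higher estimate, with a median of 0.21. Sgk1, a kinase induced by the hormone, was nearly constant at 21.1, 21.7 and 21.4 CPM at ZT0 and 24.5, 17.8, 23.9 and 16.9 CPM at ZT6. After SD it rose to 116, 91.6, 116 and 69.5 CPM, a log2 fold change of 2.24 ± 0.21 over ZT6 (adjusted p = 0.00419 in edgeR's quasi-likelihood test) and the only call among 19831 genes in that comparison (0.00504%). Fkbp5 and Tsc22d3, both direct targets of the receptor, had estimates of 0.34 ± 0.25 and 0.22 ± 0.25 between ZT0 and ZT6, with overlap.

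The metallothionein genes Mt1 and Mt2, which buffer zinc and respond to both steroid and metal, belong to the same list, and Mt1 was the only 1 of its 18 members with separate groups (against 1.84% of all genes). Mt1 was at 86.8, 84.4 and 75.4 CPM at ZT0 and at 191, 419, 123 and 177 CPM at ZT6, all above, a log2 fold change of 1.47 ± 0.41 (2.77-fold) and 1.66 ± 0.45 within index numbers 5 to 18. SD mice were at 166 to 402 CPM. Mt2 was at 49.5 to 60.2 CPM at ZT0 and at 130, 222, 62.8 and 40.2 CPM at ZT6, with replicate 4 below the ZT0 range. Exons of Mt2 share 73.5% of their bases with Gm45774 on the other strand, so its reads cannot be assigned with certainty. Nfkbia, the inhibitor of NF-kappa-B, was at 8.36 to 10.6 CPM at ZT0 and at 15.4, 20.1, 9.67 and 15.6 CPM at ZT6.

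Chaperones that help fold proteins in the cytosol had 1 member of 14 with all ZT6 values below ZT0 (against 2.74% of all genes). Hsph1, a large HSP110-type chaperone under heat shock factor control, was at 139, 101 and 114 CPM at ZT0 and at 87.1, 94.4, 69.8 and 82.7 CPM at ZT6, all below, a log2 fold change of -0.50 ± 0.19. After SD it was at 113 to 171 CPM, above every undisturbed ZT6 library, with a log2 difference of 0.70 ± 0.18 (adjusted p = 0.918 in edgeR's quasi-likelihood test). Both differences rest on the same ZT6 libraries, and Hsph1 was named after its values were seen. The 14 members split 9 higher and 5 lower, with a median of 0.11. Hspa5, the main chaperone of the endoplasmic reticulum, was at 346 to 486 CPM at ZT0 and 383 to 674 CPM at ZT6; the 18 genes of its compartment had a median of 0.09.

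Txnip, a glucose-induced inhibitor of thioredoxin and of glucose uptake, was at 14.3, 11 and 13.3 CPM at ZT0 and at 41, 20.7, 15.4 and 25.4 CPM at ZT6. Its ZT6 libraries were all above ZT0, for a log2 fold change of 1.00 ± 0.29 that was 0.45 within index numbers 5 to 18. Slc2a1, the glucose transporter of the blood-brain barrier, was at 49.6 to 52.9 CPM at ZT0 and at 68.4, 69.1, 47.5 and 96.7 CPM at ZT6. Scd1, the stearoyl-CoA desaturase, lay below the ZT0 range of 377 to 453 CPM in all 4 ZT6 libraries, at 333 to 369 CPM. The 20 metabolic and fasting-responsive genes tested had 1 member apart on each side, against 1.84% of all genes higher and 2.74% lower. Of the 20, 14 had a higher estimate, with a median of 0.20 that was -0.06 within index numbers 5 to 18.

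**Figure D3:**
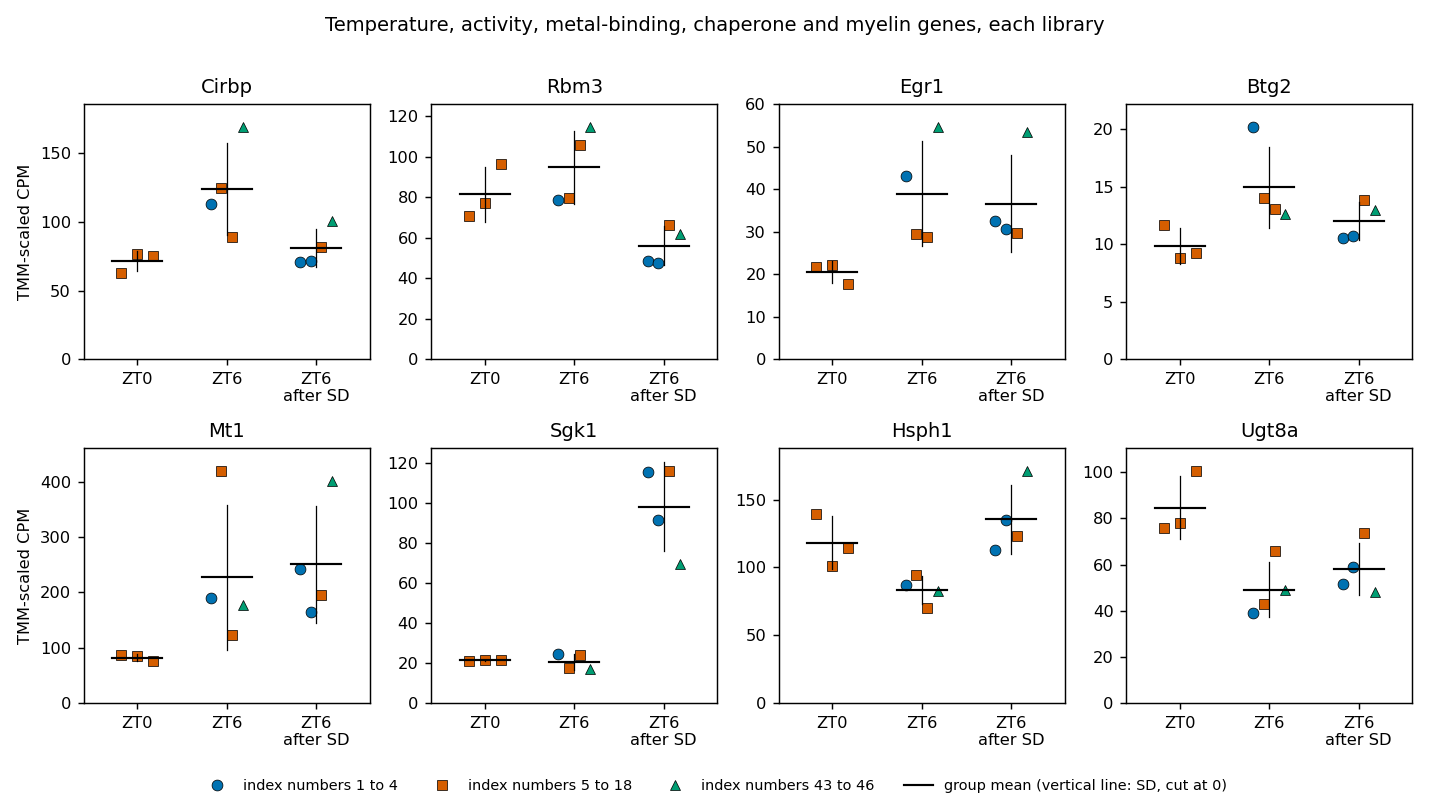
TMM-scaled CPM of cold-inducible (Cirbp, Rbm3), immediate early (Egr1, Btg2), metallothionein (Mt1), glucocorticoid-induced (Sgk1), chaperone (Hsph1) and myelin lipid (Ugt8a) genes in each control library; symbols as in the plot of clock genes by library. Cirbp, Egr1, Btg2 and Mt1 are above the ZT0 range in every ZT6 library, Hsph1 and Ugt8a below it, and Sgk1 is high only in the 4 libraries after sleep deprivation (SD).

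Hypothalamic peptide genes had 23 of 29 tested members with a higher estimate at ZT6 and a median of 0.36, which was 0.11 without ZT6 replicate 2. Sst, the growth hormone inhibiting peptide, was the only member of the 29 whose groups did not overlap (1.84% of all genes were higher in this way, so 1 member is near the background). It was at 101, 90.6 and 76.6 CPM at ZT0 and at 119, 232, 104 and 186 CPM at ZT6, a log2 fold change of 0.84 ± 0.32. Hcrt, the wake-promoting orexin peptide, was at 25.8, 133 and 28.5 CPM at ZT0 and at 23.2, 54.5, 59.0 and 59.5 CPM at ZT6. One ZT0 library set its mean: the log2 fold change was -0.35 ± 0.63 with it and 0.87 without it. Pmch, the melanin-concentrating hormone of the same region, was at 398 to 707 CPM at ZT0 and 358 to 908 CPM at ZT6, and its exons share 58.1% of their bases with Parpbp on the other strand.

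The arcuate peptides that drive feeding, Agrp and Npy, varied together with overlap. Agrp was at 10.8, 4.68 and 13.1 CPM at ZT0 and at 13.9, 34.8, 4.48 and 14.1 CPM at ZT6. Npy was at 15.1 to 50.3 CPM and then 31.3 to 81.0 CPM. Pomc, the opposing satiety precursor that the pituitary also makes in quantity, was at 67.1, 17.6 and 28.2 CPM at ZT0 and at 1111, 89.5, 24.2 and 42.6 CPM at ZT6; its log2 fold change of 3.07 ± 1.2 was 0.47 without ZT6 replicate 1, the library with Gh at 527 CPM.

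Avp and Oxt, the neurohypophysial hormones, reached 714 and 355 CPM in ZT6 replicate 2 against 120 to 207 CPM and 53.1 to 132 CPM at ZT0. The other ZT6 libraries had 134 to 313 CPM of Avp and 43.4 to 138 CPM of Oxt, so both genes overlapped. Of the 27 peptide and hormone receptors tested, 9 had a higher and 18 a lower estimate, with a median of -0.08, and none had separate groups.

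Protein-coding RNA of the mitochondrial genome was lower at ZT6 as a sum. The 13 protein-coding mitochondrial genes, all subunits of the respiratory chain, summed to 77381, 76406 and 83901 CPM at ZT0 and to 52154, 49863, 58853 and 65395 CPM at ZT6. These ranges did not overlap, and the SD libraries, at 47533 to 55987 CPM, were below ZT0 as well. All RNA of the mitochondrial chromosome, ribosomal RNA included, did overlap: it took 10.24%, 9.074% and 11.68% of counts at ZT0 and 6.28%, 9.306%, 8.666% and 7.174% at ZT6, where replicate 2 exceeded ZT0 replicate 2. By gene, 12 of 13 had a lower estimate, with a median of -0.50 that was -0.69 within index numbers 5 to 18 and -0.34 without ZT6 replicate 2. The exception, mt-Nd6, is the one encoded on the other strand of that genome, and was at 1354 to 1883 CPM at ZT0 and at 1004, 1335, 1485 and 3400 CPM at ZT6; without replicate 4 its log2 fold change turned from 0.21 ± 0.45 to -0.30.

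Of the 13, 4 lay below the ZT0 range in every ZT6 library (against 2.74% of all genes): mt-Co1, mt-Atp6, mt-Atp8 and mt-Nd4. Cytochrome oxidase subunit mt-Co1 was at 19885, 21448 and 19532 CPM at ZT0 and at 16546, 8142, 13758 and 13461 CPM at ZT6, a log2 fold change of -0.64 ± 0.30. The ATP synthase subunit mt-Atp6 was at 7409 to 9573 CPM and then 3431 to 6226 CPM. None passed the test.

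Nuclear genes of the same respiratory chain had estimates of the opposite sign, whose size depended on ZT6 replicate 2. Of 60 tested, 58 had a higher estimate, with a median of 0.52, and the 74 genes of the cytosolic ribosome had 70 higher, with a median of 0.58. Their summed levels overlapped: the respiratory chain ran from 6636 to 7121 CPM at ZT0 and was at 8014, 14963, 5856 and 8331 CPM at ZT6, and the ribosomal genes ran from 11697 to 13843 CPM and were at 15432, 33844, 9866 and 15869 CPM. ZT6 replicate 2 held the highest of the 4 ZT6 values for 53 of the 60 and 70 of the 74, and replicate 3 was below the whole ZT0 range in both sums. Replicate 1 was above all 3 ZT0 libraries for 44 of the 60 and 46 of the 74, and replicate 4 for 30 and 44. Without replicate 2 the medians were 0.08 and 0.13, against 0.05 over all genes. Within index numbers 5 to 18, where the ZT6 libraries are replicates 2 and 3, they were 0.72 and 0.76. Sdhb, the iron-sulphur subunit of succinate dehydrogenase, was at 74.1 to 81.8 CPM at ZT0 and at 126, 194, 75.0 and 136 CPM at ZT6.

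**Figure D4:**
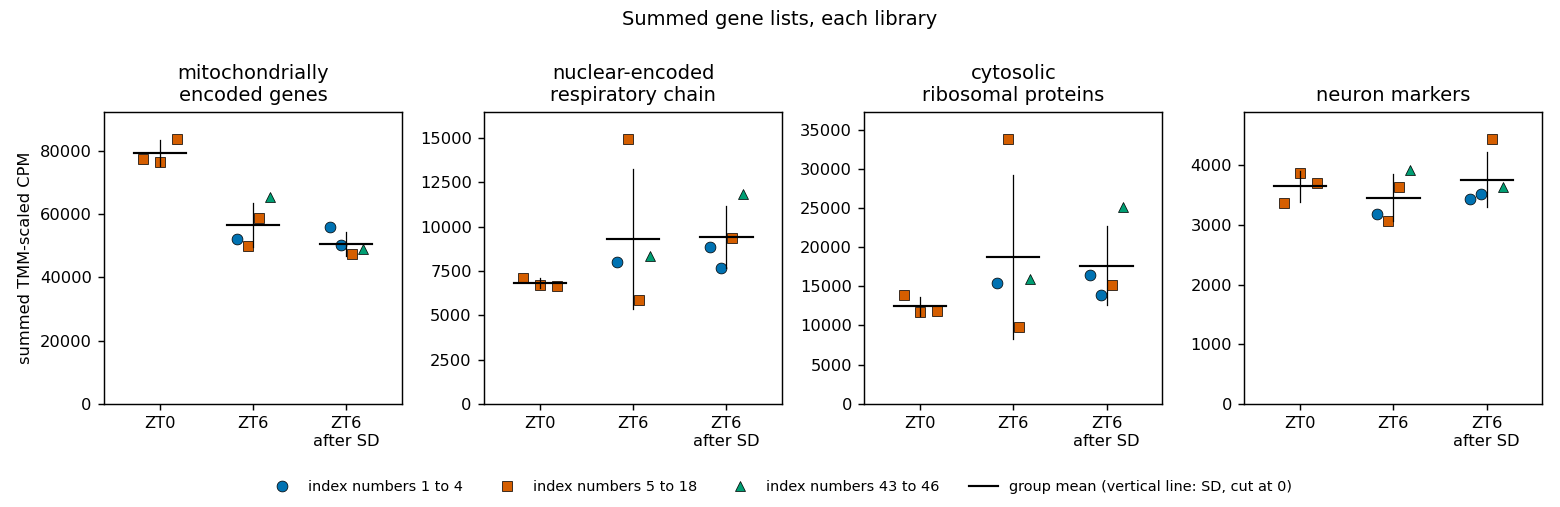
Summed TMM-scaled CPM of 13 mitochondrially encoded genes, 60 nuclear respiratory chain genes, 74 cytosolic ribosomal protein genes and 9 neuron markers in each control library; symbols as in the plot of clock genes by library. The mitochondrially encoded sum is at 76406 to 83901 CPM at ZT0 and at most 65395 CPM at ZT6, while the nuclear sums overlap and peak in ZT6 replicate 2.

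Among glial genes, 1 myelin lipid gene and 1 growth factor receptor gene were among the furthest apart. Ugt8a, which makes the myelin lipid galactosylceramide, was at 75.7, 77.8 and 101 CPM at ZT0 and at 39.0, 42.8, 65.9 and 49.1 CPM at ZT6, below in every library, for a log2 fold change of -0.78 ± 0.22. Erbb3, a neuregulin receptor, was at 18.3, 16.1 and 18.7 CPM and then 11.3, 8.08, 11.9 and 11.1 CPM, again apart, with -0.74 ± 0.19 and -0.85 ± 0.27 within index numbers 5 to 18. Cldn11, the claudin of the myelin sheath, was the other gene of the 12 myelin markers with separate groups (2 of 12 lower, against 2.74% of all genes), at 132 to 174 CPM and then 103 to 117 CPM. Mbp, a main protein of compact myelin, overlapped, at 2079 to 2345 CPM at ZT0 and 1480 to 2225 CPM at ZT6.

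Microglial and ependymal markers had higher estimates throughout, 10 of 10 and 7 of 7, with medians of 0.44 and 0.61, but no member of either list had separate groups. Their sums were 235 to 288 and 56.6 to 67.0 CPM at ZT0, and 223 to 386 and 49.4 to 152 CPM at ZT6. In both, replicate 3 was the lowest ZT6 library. Astrocyte markers had a median of 0.17, neuron markers of -0.03 and oligodendrocyte precursor markers of -0.04.

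No member of the 38 gene lists was called in either direction in edgeR's fit of the 11 control libraries. DESeq2 with index set, chosen after seeing the data, called Gpr17 of the oligodendrocyte precursor markers, with a log2 fold change of -0.71. It also called Egr3, an immediate early gene near 0 counts that edgeR did not test. Of 11 histamine and monoamine genes tested, 4 had a higher and 7 a lower estimate, and of 10 adenosine signalling genes 7 and 3. Hdc, which makes histamine in the wake-active tuberomammillary neurons, was at 72 to 104 CPM at ZT0 and 73.2 to 123 CPM at ZT6. Adora1, the adenosine receptor tied to sleep pressure, was at 76.5 to 90.3 CPM and 66.0 to 139 CPM. The 27 potassium channels and the 23 glutamate and GABA receptor subunits had medians of -0.04 and -0.13.

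**Figure D5:**
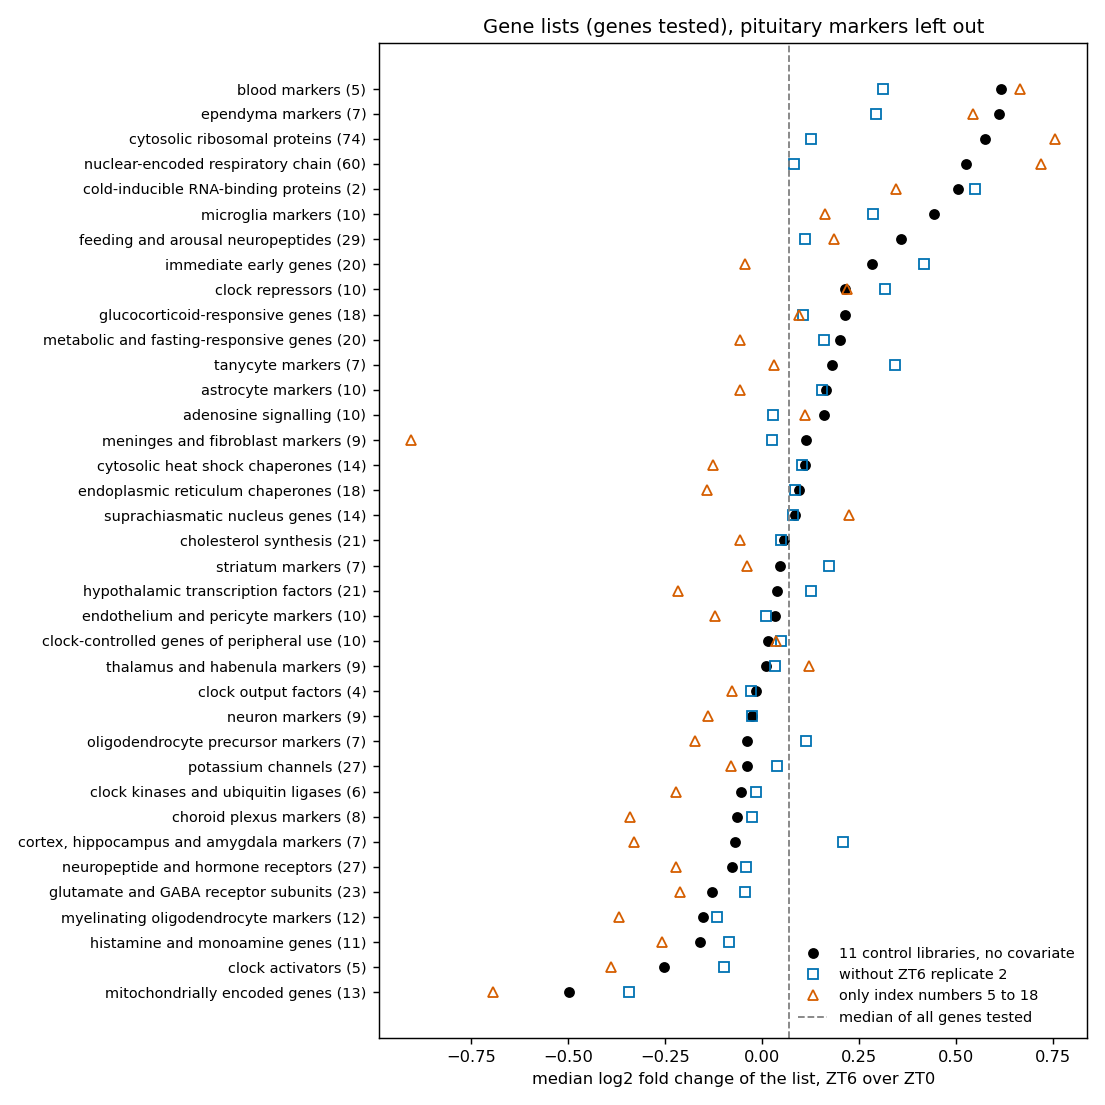
Median log2 fold change of ZT6 over ZT0 for 37 gene lists (number of genes tested in brackets) in the fit of 11 control libraries, without ZT6 replicate 2, and with only index numbers 5 to 18; the dashed line is the median of all genes, 0.07. The mitochondrially encoded genes are lowest, at -0.50, and the ribosomal and respiratory chain lists fall towards the dashed line without replicate 2. The pituitary markers, with a median of 3.72 that was 2.20 without ZT6 replicate 1, are not plotted.

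Where no gene is called, the 10 smallest p-values at a mean of at least 1 CPM show what led the ranking. They were mt-Td, Tmem254c, Gm10443, Cep78, Eif4a-ps4, Trib1, mt-Ti, Zmym1, Stat5a and Erbb3, and all had an adjusted p of 0.967 in edgeR's quasi-likelihood test. The mitochondrial transfer RNA for aspartate, mt-Td, was at 17.3, 15.6 and 20.6 CPM at ZT0 and at 5.96, 7.36, 8.85 and 7.97 CPM at ZT6, a log2 fold change of -1.25 ± 0.21. The isoleucine one, mt-Ti, was at 8.13 to 12.5 CPM and then 3.51 to 4.42 CPM. Transfer RNAs are shorter than a usual library fragment.

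Several others have close copies or little known function. Tmem254c, a member of a cluster of near-identical genes, was at 2.27, 3.18 and 5.29 CPM at ZT0 and at 21.9, 12.6, 14 and 16.1 CPM at ZT6, and such reads could be split among copies. Eif4a-ps4, a pseudogene, had 0 counts in all 3 ZT0 libraries and in ZT6 replicate 2, and 12, 19.3 and 58.4 CPM in the others, so its groups overlapped at 0. Gm10443, also a pseudogene, was at 8.09 to 9.97 CPM and then 13.6 to 38.1 CPM.

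The named protein-coding genes of that ranking begin with Trib1, a pseudokinase that targets transcription factors for degradation, at 3.96, 4.52 and 4.91 CPM at ZT0 and 9.31, 12.3, 5.90 and 11.8 CPM at ZT6. Stat5a, which carries prolactin and growth hormone signals, was at 2.96 to 4.16 CPM and then 5.85 to 7.57 CPM. Cep78, a centrosomal protein, was at 1.16 to 2.57 CPM and then 3.76 to 9.52 CPM. Zmym1, a zinc finger protein, was at 50.3 to 55.1 CPM and then 23.4 to 37.9 CPM, with 41% of its exon bases shared with Gm12940 on the other strand. All 4 had separate groups at the 2 times. After SD, Trib1 was at 12 to 16.9 CPM and Zmym1 at 31.8 to 48.1 CPM, both overlapping the undisturbed ZT6 mice.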

How the data were processed

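RNA of whole hypothalamus was sequenced as polyA-selected libraries (TruSeq kit), per the labels' protocols. The authors deposited 1 table of estimated counts per gene, whole numbers, made from trimmed reads with Trimmomatic 0.38 and kallisto 0.44.0, per the submitters' processing notes; whether strand was used is not given in the sources used here. Of 41461 gene lines, 5 repeated a gene ID with the same counts and were dropped, which left 41456. Positions are those of GENCODE M21 (GRCm38), which held 41279 of these IDs.

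Genes were filtered with filterByExpr (min.count 10, min.total.count 15) and tested with edgeR 4.0.16 (R 4.3.3, TMM factors, quasi-likelihood F test, two-sided, Benjamini-Hochberg over 19831 genes, called at adjusted p under 0.05). The fit held the 11 control libraries in 3 groups with no covariate. An SE is the log2 fold change divided by the square root of F. The script was tested on simulated data with the levels and spread of these 11 libraries. It called 6 of 100 genes changed 2-fold and 78 of 100 changed 4-fold, so the absence of calls does not show that changes of 2-fold are absent. No replicate pair agreed within sampling noise. The samples, gene lists and named genes were chosen with earlier results of these data known. Named by rule were the 19 clock genes reported, 18 further fixed genes (Cirbp, Rbm3, Hspa5, Fos, Arc, Homer1, Egr1, Fkbp5, Sgk1, Tsc22d3, Hcrt, Pmch, Agrp, Npy, Pomc, Oxt, Avp, Vip) and, since fewer than 5 genes were called, the 10 with the smallest p at a mean of at least 1 CPM. One clock gene and 1 myelin marker are not reported here and were left out of their lists' counts and sums. Promoter sequences, planned for called genes, are shown for 3 genes chosen after their values were seen. Alternatives were other size factors, DESeq2 1.42.0, no filter, other sets of libraries, index set as a factor, index numbers 5 to 18 alone, a 2-fold limit and leaving out each library.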

Additional observations from a re-analysis of the deposited data

Results flagged for a closer look

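Within the 4 ZT6 libraries, 104 gene levels and list sums were examined for 1 library far from the others, by the gap to its nearest neighbour over the whole range (Dixon's test at the 95% level), and 10 passed. Chance alone passes about 1 group in 20. ZT6 replicate 1 stood high for Pomc, at 1111 CPM, and for the sum of pituitary markers, at 1745 CPM. The same library stood low for Hcrt, at 23.15 CPM, and for the sum of suprachiasmatic nucleus genes, at 145.6 CPM. ZT6 replicate 3 stood high for Homer1, at 41.17 CPM, and low for Fkbp5, at 17.93 CPM. ZT6 replicate 4 stood high for the sums of cold-inducible genes, at 283.3 CPM, of oligodendrocyte precursor markers, at 631 CPM, and of clock-controlled genes of peripheral tissues, at 301.9 CPM. It stood low for Stat5a, at 5.851 CPM, which was still above all 3 ZT0 values.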

How the results depend on the processing

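Genes called stayed at 0 in both directions with RLE factors, without the count filter, with 7, 17 or 22 libraries, with the 2-fold limit, with index set as a factor and within index numbers 5 to 18. DESeq2 called 12 higher and 1 lower, and with index set as a factor 68 and 28. Some calls of DESeq2 with index set, such as Gbp4 and Zfp775, rest on counts in 1 library. DESeq2 with index set and the 17 libraries with index set were chosen after seeing the data. Leaving out each library gave 0 higher and 0 to 1 lower, the 1 being Pck2 without ZT6 replicate 1 (adjusted p = 0.0300 in edgeR's quasi-likelihood test), a gene at 0 in the other 3 ZT6 libraries. Genes whose groups did not overlap, 365 higher and 544 lower, numbered 564 to 2170 and 825 to 2257 with 1 library left out, most without ZT6 replicate 3; fewer libraries overlap less by construction. Other causes were not tested.

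These log2 fold changes turned sign. With index set as a factor they were Rora 0.23, Rorb 0.27, Nr1d2 0.12, Bhlhe40 -0.20, Fos -0.0266, Arc -0.10, Sgk1 0.0591, Hcrt 0.10 and mt-Nd6 -0.21. Within index numbers 5 to 18 they were Rora 0.24, Rorb 0.35, Nr1d2 0.0339, Bhlhe40 -0.32, Hlf -0.0341, Hspa5 -0.0235, Fos -0.0439, Arc -0.13 and mt-Nd6 -0.18. DESeq2 with index set gave Rora 0.25, Rorb 0.28, Nr1d2 0.14, Bhlhe40 -0.19, Fos -0.0127, Arc -0.0895, Sgk1 0.0745, Hcrt 0.12 and mt-Nd6 -0.20. The 17 libraries with index set gave Rora 0.18, Rorb 0.19, Nr1d2 0.17, Bhlhe40 -0.12, Fos -0.0802, Hcrt 0.29 and mt-Nd6 -0.0849. Leaving out 1 library moved Rora over -0.40 to 0.10, Rorb -0.34 to 0.22, Per3 -0.10 to 0.29, Cry1 -0.15 to 0.0464, Nr1d2 -0.26 to 0.12, Bhlhe40 -0.0712 to 0.18, Tef -0.21 to 0.0129, Nfil3 -0.20 to 0.0606, Hspa5 -0.0325 to 0.28, Fos -0.0612 to 0.33, Sgk1 -0.13 to 0.0465, Tsc22d3 -0.0303 to 0.35, Hcrt -0.73 to 0.87, Pmch -0.11 to 0.33, Oxt -0.12 to 1.19 and mt-Nd6 -0.30 to 0.40. Per1, Nr1d1, Ciart, Dbp and Arntl kept their sign under every alternative run, and of the other clock genes so did Per2, Cry2, Bhlhe41, Npas2 and Clock.

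No paired analysis was possible because the labels give the replicates no numbers; those used here follow accession order and pair no samples. The ZT6 libraries outside index numbers 5 to 18 have no ZT0 counterpart in their own runs.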

Other observations

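Sparse genes of other cell types also differed between libraries. The 5 blood genes, mostly haemoglobin chains, summed to 661, 271 and 276 CPM at ZT0 and to 668, 1063, 307 and 560 CPM at ZT6. Markers of meninges and fibroblasts summed to 670, 1279 and 345 CPM at ZT0 and to 452, 2888, 232 and 1495 CPM at ZT6. In both sums ZT6 replicate 2 was the highest of the 7 libraries, the library that also held the highest sums of ribosomal and nuclear respiratory chain genes. Thalamic and habenular markers summed to 386 to 409 CPM at ZT0 and to 394 to 591 CPM at ZT6, and striatal markers to 112 to 137 CPM and 123 to 137 CPM. Of the 21 cholesterol synthesis genes, 12 had a higher and 9 a lower estimate at ZT6, with a median log2 fold change of 0.06.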
